A study of Nematostella vectensis with 4 samples.

Results

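The CSL3 lectin-rich cells are barcodes from the tentacle and pharynx of the starlet sea anemone Nematostella vectensis that carry much RNA of the gene model NVE7724, which the gene table names CSL3_ONCKE after a rhamnose-binding lectin of chum salmon. A barcode was taken as a member when it had at least 300 UMIs (unique molecular identifiers, counts of captured RNA molecules), at least 6 of them from NVE7724, and NVE7724 made up at least 2% of its UMIs. This gave 158 members among 1299 kept tentacle barcodes and 31 among 2804 kept pharynx barcodes, that is 189 of 4103 in these libraries and 189 of the 7112 barcodes kept in the series. The study dissected polyps aged 5 months into tentacles, pharynx, mesenteries (the folds of the gut cavity) and body wall and made 1 single-cell library of each tissue. The sources used here give no strain, sex or number of animals, so all comparisons are between barcodes of 1 library and no value has a replicate error. Intervals are exact 95% intervals and cover counting error only, and no p-value is given.

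Rhamnose-binding lectins are secreted proteins that bind sugars such as rhamnose and galactose on microbial and cell surfaces, and in fish eggs, where they were first purified, they can agglutinate bacteria. Cnidarian tentacles are built from an outer and an inner layer of epithelial cells whose bases carry contractile fibres, and among these cells lie cnidocytes (the stinging cells), gland cells and neurons. Genes of mucus, of zona pellucida (ZP) proteins, which polymerise into extracellular filaments, and of the contractile apparatus therefore help to describe what kind of barcode the lectin marks. The members were defined by 1 gene, so they are called lectin-rich barcodes here and are given no cell type name. Names in the gene table are entry names of proteins, mostly of other species, and point to a protein family only.

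The values of NVE7724 itself chose the members and are a description. In the tentacle, the members made up 12.2% of kept barcodes (10.4 to 14.1%) and in the pharynx 1.11% (0.752 to 1.57%). NVE7724 took a median of 4.54% of the UMIs of a tentacle member (lowest 2.09%, highest 13.1%) and 2.72% of a pharynx member (lowest 2.00%, highest 4.79%). The members held 82.1% of the NVE7724 UMIs of kept tentacle barcodes, although they held 8.28% of all UMIs there, and in the pharynx they held 76.4% of the NVE7724 UMIs and 1.58% of all UMIs. Just outside the rule, 68 tentacle and 20 pharynx barcodes had 6 or more NVE7724 UMIs but stayed below 2%, with highest shares of 1.99% and 1.94%. Just inside it, 34 tentacle members and 22 pharynx members were under 3%. NVE7724 shares thus ran without a gap across the limit of 2%, which the plot of lectin UMIs by depth shows.

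**Figure D1:**
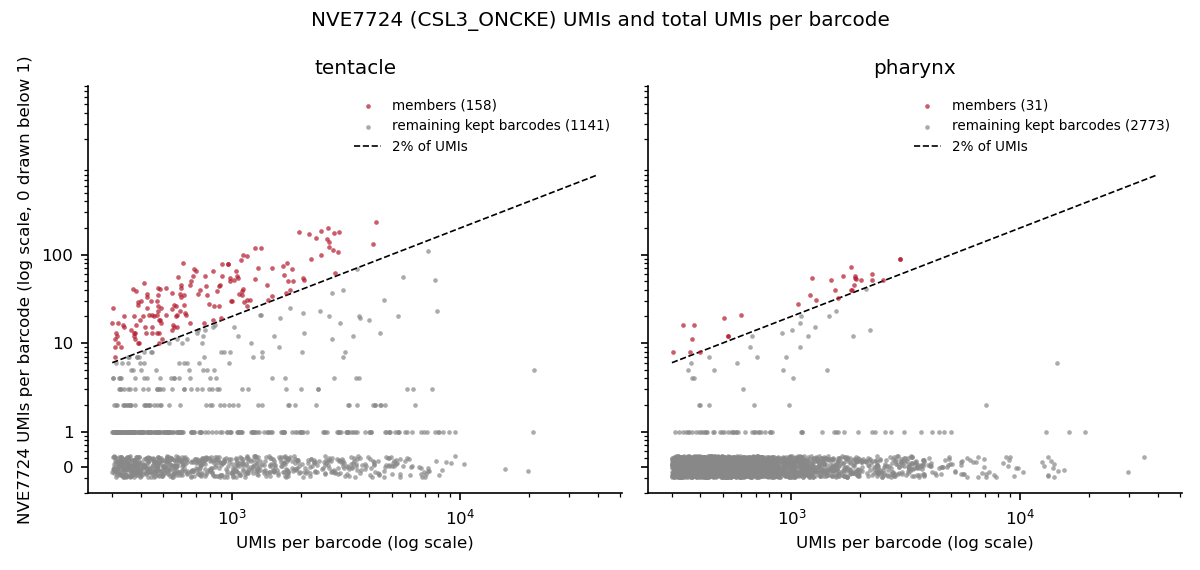
Each point is a barcode with at least 300 UMIs, with its total UMIs on the horizontal axis and its NVE7724 UMIs on the vertical axis, both on log scales (0 is drawn below 1 with random vertical spread). Red points are the 158 tentacle and 31 pharynx members, grey points the 1141 and 2773 remaining barcodes, and the dashed line marks 2% of the UMIs, with no empty band on either side of it.

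No mesentery barcode and no body wall barcode met the same rule. The 1357 kept mesentery barcodes held 0 NVE7724 UMIs, and 0 members allow a share of up to 0.272%. The 1652 kept body wall barcodes held 324 NVE7724 UMIs in 160 barcodes, with at most 17 in 1 barcode and 6 or more in 7 of them. There 0 members allow a share of up to 0.223%. Since each tissue is 1 library, the tissue and the library cannot be told apart.

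Depth differed between members and the rest in a way that has to be read beside the later values. A tentacle member had a median of 642 UMIs, against 712 UMIs in the remaining tentacle barcodes, while a pharynx member had 1552 UMIs, against 560 UMIs in the remaining pharynx barcodes. Drawn down to 300 UMIs each, tentacle members had a median of 207 detected genes and the remaining tentacle barcodes 190, and pharynx members had 199 and the remaining pharynx barcodes 197. Over all barcodes the libraries held 2637057 UMIs in the tentacle and 3499510 UMIs in the pharynx. Of the kept barcode sequences, 22 occurred in more than 1 of the 4 libraries, among them 3 of members, and leaving these out gave 156 tentacle and 30 pharynx members. No doublet caller was run. Of the tentacle members, 4 also had at least 3 UMIs of the myosin light chains NVE20160 and NVE3912, 0 were rich in the stinging-cell gene Ncol3, and no pharynx member met either cut.

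NVE7724 UMIs were also found in barcodes of other kinds. In the tentacle, 34.2% of the remaining barcodes had at least 1, and so did 30.1% of the 163 Ncol3-rich barcodes (median depth 1316 UMIs), 25.5% of the 98 barcodes rich in the unnamed model NVE18957 (2744 UMIs) and 18.5% of the 108 MYL9-rich barcodes, which had at least 3 UMIs of those myosin light chains (1272 UMIs). At 300 UMIs each, 21.0% of the remaining tentacle barcodes and 9.20% of the Ncol3-rich ones kept an NVE7724 UMI. In the pharynx, 3.35% of the remaining barcodes had one, as did 1 of 35 Ncol3-rich barcodes and 0 of 64 MYL9-rich barcodes. A single NVE7724 UMI was thus also seen in Ncol3-rich tentacle barcodes, though in a smaller share of them at equal depth. By level the groups lay far apart: NVE7724 made up 49276.5 UMIs per 1000000 (CPM) of tentacle members, against 230.1 CPM of Ncol3-rich barcodes.

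All other genes were then compared with NVE7724 left out of the totals, so that its own abundance does not dilute the rest. A gene was called high in members when it had at least 10 UMIs there, was detected in at least 10% of members and reached at least 4 times the CPM of the remaining barcodes of the same library, and low when at least 10 UMIs were expected in the members and the CPM was at most 0.25 times that of the remainder. In the tentacle, 150 of 873 testable genes were high (17.2%) and 329 of 1383 were low (23.8%). In the pharynx, 65 of 481 were high (13.5%) and 108 of 478 were low (22.6%). High in both libraries were 34 of the 443 genes testable in both (7.67%), and low in both were 36 of 422 (8.53%). The 34 shared genes made up 22.7% of those high in the tentacle and 52.3% of those high in the pharynx, and the 36 made up 10.9% and 33.3% of the low lists. Only 53 of the 150 tentacle genes and 47 of the 65 pharynx genes called high were tested in the other library. For the low genes this was 46 of 329 and 68 of 108. These percentages therefore also depend on how many genes could be tested in both. No gene was called high in one library and low in the other. With each barcode drawn down to 300 UMIs, which leaves fewer UMIs to call from, 28 tentacle genes, 6 pharynx genes and 3 shared genes were high. Of the 34 genes, 13 carry a name and 21 do not, while 17269 of the 25734 gene rows carry one. For 26 of the 34 the ratio was larger in the pharynx. The same count over all genes testable in both libraries was not made, so the 26 cannot be read as a trait of these genes. Over all genes tested, the median log2 ratio was 0.24 in the pharynx and 0.0041 in the tentacle.

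**Figure D2:**
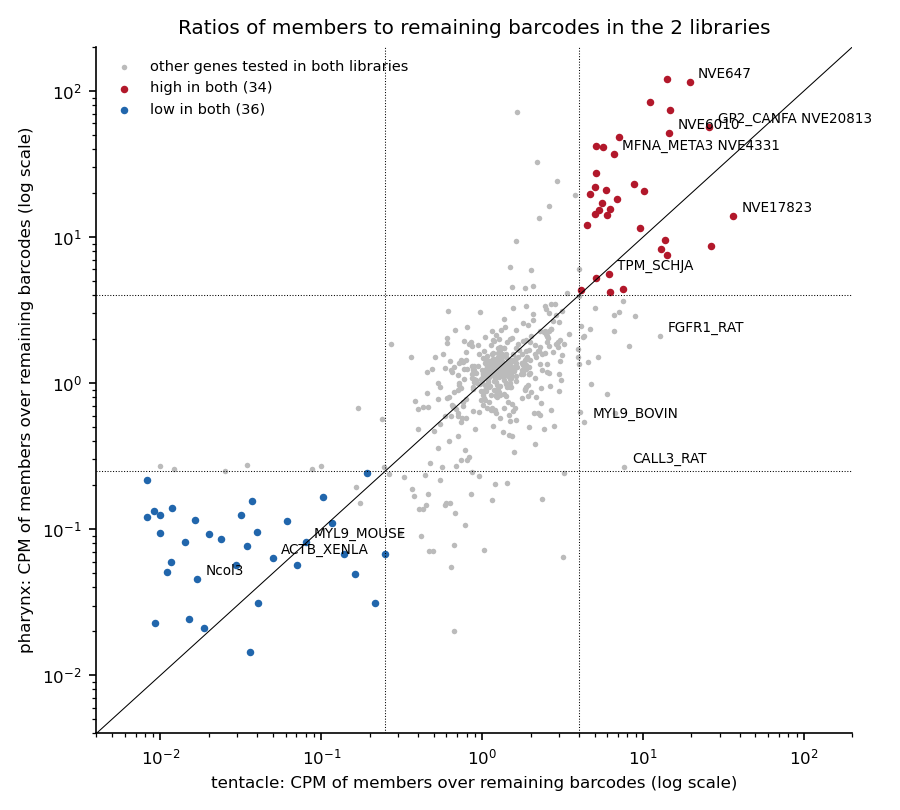
Each point is a gene tested in both libraries, with its ratio of CPM in members to CPM in remaining barcodes, horizontally for the tentacle and vertically for the pharynx (log scales; 0 member UMIs are set to 3). Dotted lines mark ratios of 0.25 and 4, the diagonal marks equal ratios, red points are the 34 genes high in both, and blue points the 36 genes low in both.

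Among secreted and surface proteins, 2 models named GP2_CANFA led the members, NVE20813 in the tentacle and NVE8266 in the pharynx. GP2 is the ZP-domain glycoprotein of the zymogen granule membrane of the mammalian pancreas. In the tentacle, NVE20813 had 525 UMIs in members (3619 CPM) and 237 in the remaining barcodes (140.3 CPM), a ratio of 25.8 (22.1 to 30.2). It was detected in 84.8% of members, against 9.99% of the remaining barcodes, and in 65.8% against 5.35% at 300 UMIs each, where the ratio was 15.4. In the pharynx, NVE20813 had 37 UMIs in members (876 CPM) and 42 in the remaining barcodes (15.5 CPM), a ratio of 56.6 (35.4 to 90.2). The other model, NVE8266, had 149 UMIs in pharynx members (3529 CPM) and 96 in the remaining pharynx barcodes (35.4 CPM), a ratio of 99.7 (76.6 to 130.2), and was detected in 77.4% of those members. In the tentacle NVE8266 had only 10 UMIs in members (68.9 CPM) and 7 in the remaining barcodes (4.14 CPM), in 6.33% of members, which is under the 10% needed for a call. Compared between the libraries, NVE8266 was at 0.0195 times the pharynx level in tentacle members (0.00918 to 0.0369), while NVE20813 was at 4.13 times (2.96 to 5.93).

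Both GP2_CANFA models were seen in the same barcode in 9 of 158 tentacle members and in 14 of 31 pharynx members. At least 1 of them was seen in 85.4% of tentacle members and 87.1% of pharynx members. The gene table holds 34 models with this name, and these were the 2 with any UMI in members of either library, as counted. The same held for the lectins: of 8 models named CSL3_ONCKE, NVE7724 alone had member UMIs. The other models were scarce in the remaining barcodes too. In either library none of them had more than 4 UMIs there for CSL3_ONCKE or 31 for GP2_CANFA. Their absence from members therefore says little. Since reads may have been divided among near-identical copies in a way not stated, the level of a single copy carries that limit.

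The related lectins went the other way. CSL1_ONCKE NVE3843, the model of another chum salmon lectin, had 2 UMIs in tentacle members (13.8 CPM) and 2838 in the remaining barcodes (1680.1 CPM), a ratio of 0.00821 (0.000993 to 0.0297). In the pharynx it had 0 UMIs in members, where the limit of 3 UMIs allows a ratio of up to 0.218, and 883 in the remaining barcodes. EVA1C_PANTR NVE3845, whose mammalian namesake also carries lectin domains of this type, had 8 UMIs in tentacle members (55.1 CPM) and 9313 in the remaining barcodes (5513 CPM), a ratio of 0.010 (0.00432 to 0.0197). In pharynx members EVA1C_PANTR had 0 UMIs, against 2053 in the remaining barcodes, a ratio of at most 0.0938. CSL2_ONCKE NVE251 and the galectin-named LEG_HELCR NVE19041 had 0 UMIs in members of both libraries, and in the tentacle their ratios were at most 0.177 and 0.0561. In Ncol3-rich barcodes NVE3843 was at 1445 CPM in the tentacle and 1349 CPM in the pharynx, and EVA1C_PANTR at 5936 and 3735 CPM. In NVE18957-rich tentacle barcodes they reached 6239.8 CPM and 16734.5 CPM.

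Unnamed models were as prominent as named ones. NVE647 had 281 UMIs in tentacle members (1937 CPM) and 168 in the remaining barcodes (99.5 CPM), a ratio of 19.5 (16.03 to 23.7), and 41 UMIs in pharynx members (971 CPM) and 23 in the remaining barcodes (8.48 CPM), a ratio of 114 (67.1 to 199.8). NVE6010 had 1551 CPM in tentacle members and 107 CPM in the remaining barcodes, a ratio of 14.5 (11.8 to 17.7), and 2297 CPM in pharynx members and 44.6 CPM in the remaining barcodes, a ratio of 51.5 (39.0 to 67.8). It was found in 64.6% of tentacle members and 87.1% of pharynx members. NVE6003 had ratios of 14.02 in the tentacle and 121 in the pharynx, NVE19323 of 14.8 and 74.1, NVE114 of 11.03 and 83.5, and NVE17823 of 36.2 and 13.9. NVE17823 was thus among the 8 of the 34 genes whose ratio was larger in the tentacle.

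**Figure D3:**
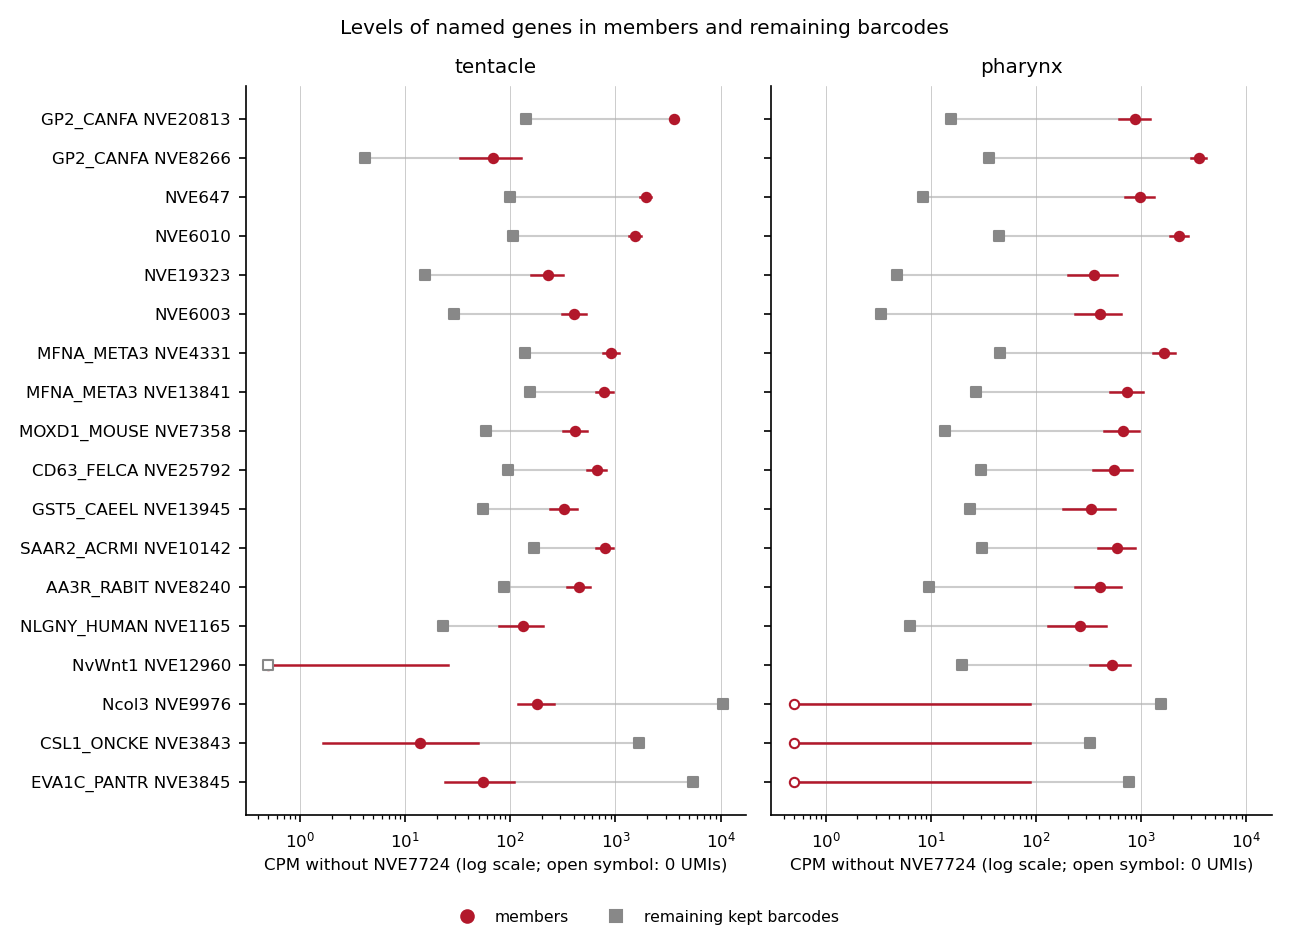
Levels of 18 named genes in members (red circles, with the exact 95% Poisson interval as a bar) and in remaining barcodes (grey squares), in CPM without NVE7724 on a log scale, for the tentacle (left) and the pharynx (right); an open symbol stands for 0 UMIs, and NvWnt1 has 0 in both tentacle groups. NVE20813 reaches 3619 CPM in tentacle members and NVE8266 3529 CPM in pharynx members, while Ncol3, CSL1_ONCKE and EVA1C_PANTR lie far below the remaining barcodes in both panels.

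MFNA_META3 (2 models) and MOXD1_MOUSE NVE7358, named after enzymes that act on amines or amino acids, were high in members of both tissues. MFNA_META3 NVE4331, named after an archaeal tyrosine decarboxylase, had 131 UMIs in tentacle members (903 CPM) and 231 in the remaining barcodes (136.7 CPM), a ratio of 6.60 (5.29 to 8.22), and 70 UMIs in pharynx members (1658 CPM) and 122 in the remaining barcodes (45.0 CPM), a ratio of 36.9 (27.1 to 49.8). A second model of this name, NVE13841, had 786 CPM in tentacle members and 155 CPM in the remaining barcodes, a ratio of 5.07 (4.03 to 6.34), and 734 CPM in pharynx members and 26.5 CPM in the remaining barcodes, a ratio of 27.6 (17.5 to 42.7). The tentacle call of NVE13841 was lost when each barcode was given equal weight, with a ratio of 3.37. MOXD1_MOUSE NVE7358, a copper monooxygenase of the dopamine beta-hydroxylase family, had 414 CPM in tentacle members and 58.6 CPM in the remaining barcodes, a ratio of 7.06 (5.03 to 9.82), and 663 CPM in pharynx members and 13.7 CPM in the remaining barcodes, a ratio of 48.6 (28.6 to 81.6). A further model, MOXD1_CHICK NVE14232, was high in tentacle members (ratio 6.71) and not in pharynx members (ratio 0.623, 0.249 to 1.29).

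The other named genes high in both libraries were of several kinds. CD63_FELCA NVE25792, a tetraspanin of late endosomes and secretory granules, had 662 CPM in tentacle members and 95.9 CPM in the remaining barcodes (ratio 6.90, 5.30 to 8.94), and 545 CPM in pharynx members and 29.9 CPM in the remaining barcodes (ratio 18.2, 10.9 to 29.3). SAAR2_ACRMI NVE10142, named after an acidic protein of the coral skeleton, had ratios of 4.68 in the tentacle and 19.6 in the pharynx. GST5_CAEEL NVE13945, a glutathione transferase, had ratios of 5.95 and 14.1, and the alpha-tubulin TBA1_DROME NVE14884 of 5.01 and 14.3. Among receptors and adhesion proteins, the adenosine-receptor-named AA3R_RABIT NVE8240 had ratios of 5.11 (tentacle) and 42.0 (pharynx), and the neuroligin-named NLGNY_HUMAN NVE1165, of a family of synaptic adhesion proteins, of 5.67 and 41.5. The small LIM protein CRIP1_RAT NVE13456 had 5.11 in the tentacle and 5.24 in the pharynx. With equal weight for each barcode the tentacle calls of CRIP1_RAT (3.40), SAAR2_ACRMI (2.82), GST5_CAEEL (3.76) and TBA1_DROME (3.48) were lost, as was the pharynx call of CRIP1_RAT (3.42).

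Calponin CNN2_BOVIN NVE7521, an actin-binding protein of smooth muscle type, was high in tentacle members. It had 66 UMIs in tentacle members (455 CPM) and 92 in the remaining barcodes (54.5 CPM), a ratio of 8.35 (5.995 to 11.6), and was detected in 30.4% of members, against 5.78% of the remaining barcodes. At 300 UMIs each it was detected in 10.1% of members, against 2.45% of the remaining barcodes. At that depth its ratio was 4.71. In the pharynx it was scarce altogether, with 2 UMIs in members and 14 in the remaining barcodes. Its pharynx ratio of 9.17 (1.01 to 39.9) rests on 2 member UMIs, fewer than the 10 needed for a call.

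Calponin was part of a wider pattern in the muscle and actin-binding list, which held genes high and genes low in the same members. Of 17 testable genes of the list 9 were high in tentacle members and of 12 testable ones 3 were low, against 17.2% and 23.8% of all genes, so the low count is near the background. The median log2 ratio of its 22 tested genes was 1.41, against 0.0041 over all 1573 genes tested. In the pharynx 1 of 3 testable genes was high and 5 of 8 were low, against 13.5% and 22.6% of all genes, with a median of -3.38 over 9 genes, against 0.24 over all 641 genes tested. The share of UMIs in the whole list was 0.779% in tentacle members and 0.906% in the remaining barcodes, and 0.315% in pharynx members and 0.701% in the remaining barcodes.

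On the high side stood tropomyosin and actin cross-linkers, and beside them dystrophin-type linkers that the list does not hold. The tropomyosin TPM_SCHJA NVE3068, which runs along actin filaments, had 395 UMIs in tentacle members (2723 CPM) and 750 in the remaining barcodes (444 CPM), a ratio of 6.13 (5.42 to 6.94), and 31 UMIs in pharynx members (734 CPM) and 356 in the remaining barcodes (131 CPM), a ratio of 5.59 (3.74 to 8.08). Its pharynx ratio was 3.29 at 300 UMIs each, below the limit for a call. DMD_MOUSE NVE23472, named after dystrophin, which ties actin to the membrane, had ratios of 12.9 (8.49 to 19.7) in the tentacle and 8.25 (4.37 to 14.4) in the pharynx. The utrophin-named UTRO_HUMAN NVE23474 had a ratio of 12.7 (7.66 to 21.2) in the tentacle, and in the pharynx 8 UMIs in members, too few for a call, at a ratio of 4.59. High in the tentacle alone, with ratios from 4.32 to 10.4, were MYPH_ECHGR NVE18850 (myophilin, of the calponin family), the kinase MYLK4_MOUSE NVE19990, the filamin FLNC_HUMAN NVE13524, TITIN_HUMAN NVE12991, the myosin light chains MLC2_DROME NVE3911 and MYL9_BOVIN NVE14934, and the alpha-actinin ACTN4_BOVIN NVE8644. The difference between the libraries was not tested for any of them, and of these 7 only MYL9_BOVIN had 10 or more UMIs in pharynx members.

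On the low side stood genes abundant in the MYL9-rich barcodes, of which ACTB_XENLA and MLP1_DROME are not in the list. MYL9_MOUSE NVE20160, a regulatory myosin light chain, had 30 UMIs in tentacle members (207 CPM) and 4363 in the remaining barcodes (2583 CPM), a ratio of 0.0801 (0.0540 to 0.114), and 0 UMIs in pharynx members and 2375 in the remaining barcodes, a ratio of at most 0.0811. MLC2_DROME NVE3912 had ratios of 0.0400 in the tentacle and 0.0961 in the pharynx, the actin ACTB_XENLA NVE2876 of 0.0501 and 0.0633, and the muscle LIM protein MLP1_DROME NVE7823 of 0.0703 and 0.0572. A second tropomyosin, TPM4_MOUSE NVE1725, was at 75.8 CPM in tentacle members and 872 CPM in the remaining barcodes, a ratio of 0.0870, whereas it reached 9086 CPM in MYL9-rich tentacle barcodes. The muscle myosin heavy chain MYS_ARGIR NVE14552 had a ratio of 0.0946 in the pharynx and 0.308 in the tentacle, the second above the limit for a call. In the tentacle most UMIs of these genes outside the members lay in the 108 MYL9-rich barcodes. These held 17518 of 18832 UMIs of ACTB_XENLA, 1445 of 1473 of TPM4_MOUSE and 2017 of 2118 of MYS_ARGIR. Ratios against the other remaining barcodes were not computed. Detection in tentacle members and remaining barcodes was 12.7% and 16.1% for MYL9_MOUSE, 24.1% and 16.3% for MYS_ARGIR, 1.27% and 14.5% for MLP1_DROME. In the pharynx ACTB_XENLA was at 32.3% and 19.5%. Models with 1 name thus differed in direction: MLC2_DROME NVE3911 had 165 CPM in tentacle members and 0 UMIs in MYL9-rich barcodes, and MLC2_DROME NVE3912 had 48.3 CPM and 12613 CPM. The name is shared by 8 models, so reads may have been split among them.

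**Figure D4:**
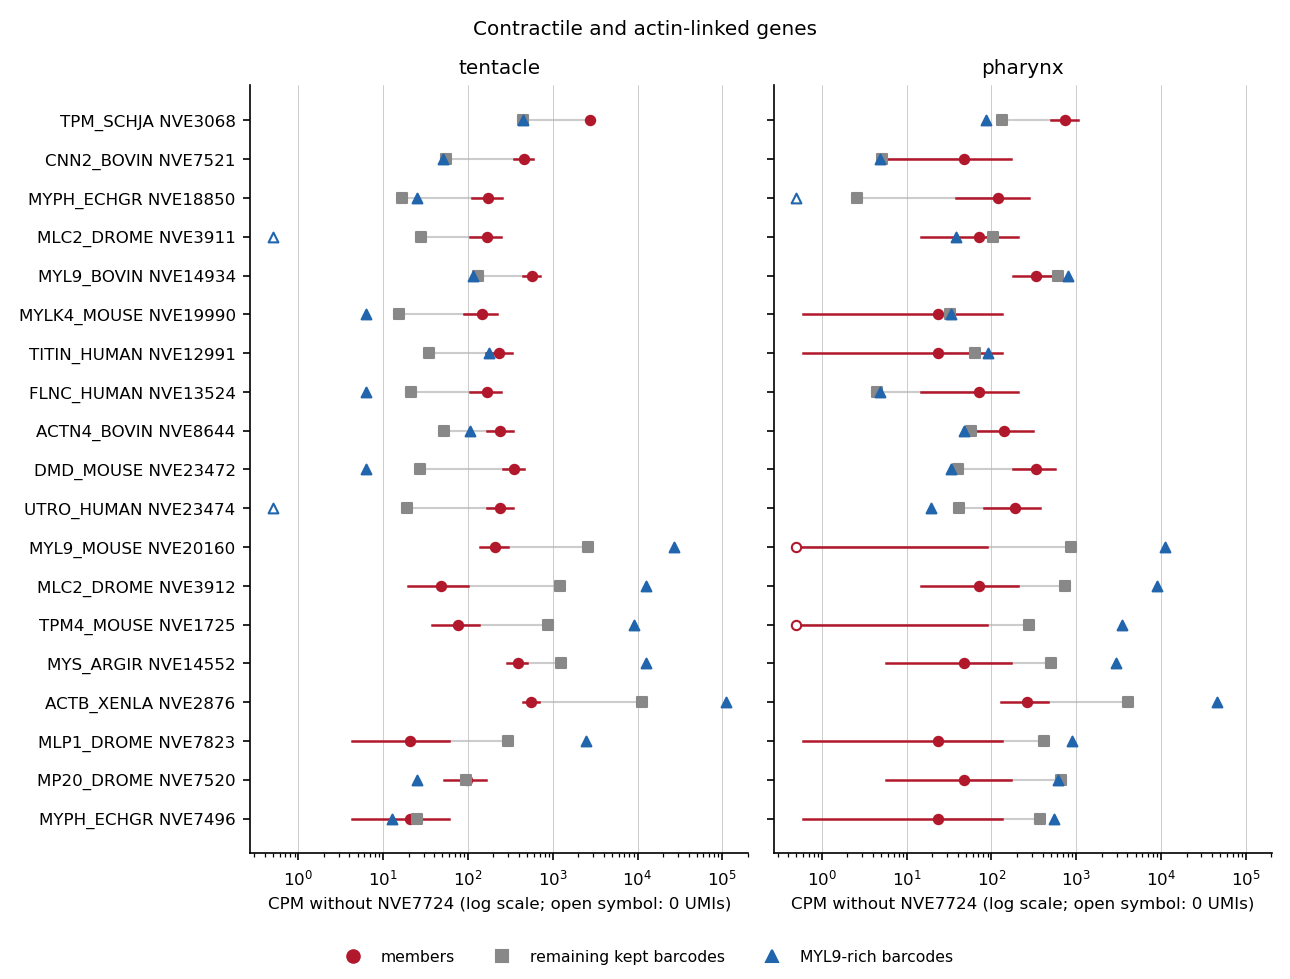
Levels of 19 contractile and actin-linked genes in members (red circles, exact 95% Poisson interval), remaining barcodes (grey squares) and MYL9-rich barcodes (blue triangles, chosen by NVE20160 and NVE3912) in CPM without NVE7724 on a log scale, tentacle left and pharynx right; an open symbol stands for 0 UMIs. In the tentacle the upper 11 genes are higher in members than in remaining barcodes and the next 6 lower, with the blue triangles of these 6 to the right of all others.

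MYL9_BOVIN NVE14934 and the calmodulin-like CALL3_RAT NVE11431 lay on opposite sides of the remainder in the 2 tissues. MYL9_BOVIN had 565 CPM in tentacle members and 130.8 CPM in the remaining barcodes, a ratio of 4.32 (3.31 to 5.59), and 332 CPM in pharynx members and 614 CPM in the remaining barcodes, a ratio of 0.540 (0.294 to 0.909). Its tentacle call was lost at 300 UMIs each (ratio 3.06) and with equal weight for each barcode (3.08). CALL3_RAT had 979 CPM in tentacle members and 128 CPM in the remaining barcodes, a ratio of 7.62 (6.12 to 9.46), and 118 CPM in pharynx members and 442 CPM in the remaining barcodes, a ratio of 0.268 (0.0869 to 0.627). A difference between the tissues was not tested, since there is 1 library of each.

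Among signalling genes, FGFR1_RAT and ELK1_MOUSE were called high in the tentacle and NvWnt1 in the pharynx, and the difference between the tissues was not tested. The receptor FGFR1_RAT NVE6310, for fibroblast growth factors, had 75 UMIs in tentacle members (517 CPM) and 69 in the remaining barcodes (40.8 CPM), a ratio of 12.7 (9.005 to 17.8), against a ratio of 2.11 (1.11 to 3.65) in the pharynx. The ETS transcription factor ELK1_MOUSE NVE13078, of a family that acts downstream of such receptors, had a ratio of 8.90 (7.51 to 10.5) in the tentacle and 2.87 (2.18 to 3.72) in the pharynx. NvWnt1 NVE12960, a secreted Wnt ligand, had 22 UMIs in pharynx members (521 CPM) and 54 in the remaining pharynx barcodes (19.9 CPM), a ratio of 26.2 (15.2 to 43.7), in 32.3% of members. The pharynx barcodes of the cluster that holds most members, but outside the rule, had 712 CPM of it. It had 0 UMIs in all tentacle barcodes kept. Of the list of developmental genes, 1 of 1 testable gene was high (NvWnt1) and 2 of 2 were low in the pharynx, against 13.5% and 22.6% of all genes: the forkhead factor NvFoxA NVE20630 with 0 member UMIs (ratio at most 0.217) and NvVcaml-like NVE15860 (0.226). In the tentacle 1 of 2 was low, against 23.8% of all genes. This was NvMyophilin-like NVE17049 (0.0166), which the list holds by its Nv name and which reached 4263 CPM in MYL9-rich barcodes. The list's share was 0.130% in pharynx members and 0.176% in the remaining barcodes.

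Further genes were called high in 1 library and not in the other, and a difference between the libraries was not tested. In the tentacle these were led by NVE4448 (ratio 30.03), the astacin-type protease NAS15_CAEEL NVE26069 (29.9), NVE9003 (29.9) and WBS27_HUMAN NVE11364 (20.2). In the pharynx these 4 had 2 to 6 member UMIs, too few for a call, with ratios of 55.0 (15.3 to 191.3) for NVE4448, 8.96 (3.12 to 21.1) for WBS27_HUMAN and 6.12 (0.695 to 25.02) for NAS15_CAEEL, and NVE9003 had 3 UMIs in members and 0 in the remaining barcodes. In the pharynx they were led by GXN_ACRMI NVE1560, named after galaxin of the coral skeleton, with 10 UMIs in members and 3 in the remaining barcodes (ratio 214, 55.1 to 1210), then by NVE8266, NVE24953 (80.3) and NVE3153 (71.3). In the tentacle GXN_ACRMI had 22 UMIs in members and 3 in the remaining barcodes, a ratio of 85.4 (25.6 to 445.6), and missed the call because 9.49% of members had it.

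Markers of stinging cells were nearly absent. Ncol3 NVE9976, a minicollagen of the capsule wall, had 26 UMIs in tentacle members (179 CPM) and 17956 in the remaining barcodes (10629.8 CPM), a ratio of 0.0169 (0.0110 to 0.0247), and 0 UMIs in pharynx members and 4205 in the remaining barcodes, a ratio of at most 0.0458. All 3 testable cnidocyte genes were low in the tentacle, against 23.8% of all genes testable for a low call there. So was the 1 testable in the pharynx, against 22.6% of all genes. The 4 genes of the list together made up 0.0186% of the UMIs of tentacle members and 1.13% of the remaining barcodes. In pharynx members all 4 were at 0.

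Markers of gland and nerve cells were counted beside the shares called over all genes, 17.2% high and 23.8% low in the tentacle and 13.5% and 22.6% in the pharynx. Of the digestive gland list, 1 of 3 testable genes was high (NAS15_CAEEL) and 4 of 8 low in tentacle members, and 0 of 1 high and 5 of 6 low in pharynx members; its share was 0.0903% in tentacle members and 0.176% in the remaining barcodes, and 0.0924% in pharynx members and 0.570% in the remaining barcodes. The secretory pathway list (signal peptide processing and protein folding) had 0 of 12 high and 7 of 33 low in the tentacle, among them PDIA4_HUMAN NVE15733 with a ratio of 0.00975 and CALU_HUMAN NVE221 with 0.0205, a low share near that of all genes, and 0 of 9 high and 0 of 10 low in the pharynx. Its share was 0.658% in tentacle members and 1.48% in the remaining barcodes, and 0.670% in pharynx members and 0.742% in the remaining barcodes. Of the neuron list 2 genes were testable for a high call and 4 for a low call in the tentacle and 1 for each in the pharynx, too few to read, and 0 were called, with shares of 0.115% in tentacle members and 0.1697% in the remaining barcodes, and 0.104% in pharynx members and 0.125% in the remaining barcodes. The mucus and lectin list without NVE7724 reached 0.445% in tentacle members and 0.277% in the remaining barcodes. In the pharynx it reached 0.528% in members and 0.136% in the remaining barcodes. Of its testable genes, 1 of 2 was high and 3 of 5 were low in the tentacle. In the pharynx 2 of 3 were high and 1 of 2 was low. The genes called high were GP2_CANFA models. NVE20813 held 525 of the list's 645 UMIs in tentacle members. NVE8266 and NVE20813 held 149 and 37 of 223 in pharynx members. The larger shares of the list in members thus rest mostly on these models.

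Of the extracellular matrix list, 1 of 3 testable genes was high and 5 of 9 low in the tentacle, and 3 of 3 testable genes were low in the pharynx, against the same shares over all genes. All but 1 of the tentacle genes called were models named HMCN1_HUMAN (hemicentin), a name borne by 51 models. No gene of the cilia list was testable in either library, and its share was 0.132% in tentacle members and 0.0603% in the remaining barcodes, and 0.104% in pharynx members and 0.136% in the remaining barcodes. No gene of the immune or cycling list was testable for a high call, and 1 of 2 immune genes and 0 of 1 cycling genes were low in the tentacle, with none testable in the pharynx. The cycling list made up 0.0379% of tentacle members' UMIs and 0.0253% of the remaining barcodes', a ratio of 1.50 (1.11 to 1.99). Of its 55 UMIs in tentacle members, 14 were of KIF28_MOUSE NVE7309 (ratio 10.2, 4.61 to 22.3), which the list holds by its KIF name. PCNA_XENLA NVE26120 had a ratio of 1.14 (0.571 to 2.06). The larger share of the list therefore cannot be read as more dividing cells among members.

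General measures of the barcodes moved with membership as well. Ribosomal protein genes made up 36.1% of UMIs in tentacle members and 29.3% in the remaining barcodes, and 39.5% in pharynx members and 32.0% in the remaining barcodes, with 0 of 84 testable genes called in either direction. Respiratory chain genes made up 0.978% in tentacle members and 1.01% in the remaining barcodes, and 0.988% in pharynx members and 0.817% in the remaining barcodes. Stress genes made up 1.80% in tentacle members and 1.17% in the remaining barcodes, with ratios below the limit for a call for the early response genes FOSX_MSVFR NVE23145 (3.05) and EGR1_XENTR NVE16297 (3.13), which dissociation can induce. The 1 gene of the list called in the tentacle was another early response gene, JUN_SERCA NVE16876, which was low with 0 UMIs in members and 471 in the remaining barcodes (ratio at most 0.0742). In the pharynx the stress share was 2.00% in members and 2.23% in the remaining barcodes, with the heat shock genes HS71L_BOVIN NVE15435 (ratio 0.147) and HSP11_CAEEL NVE10283 (0.168) called low. The part of depth, ribosomal share and stress share in the ratios above was not tested.

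The accompanying genes were often detected in the same member. Of 7 leading genes (NVE20813, NVE8266, NVE647, NVE6010, TPM_SCHJA and both MFNA_META3 models), tentacle members had at least 3 in 81.7% of cases, against 9.38% of the remaining barcodes, and pharynx members in 87.1%, against 1.01%. At 300 UMIs each the shares were 49.4% against 3.07% in the tentacle and 41.9% against 0.361% in the pharynx. These genes were picked after their levels in the same barcodes were seen, so the shares describe the members and support nothing further. The median tentacle member had 3 UMIs of NVE20813 (highest 15), and the median pharynx member 3 UMIs of NVE8266 (highest 16).

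Levels of some accompanying genes also followed the lectin below the limit of the rule. In the tentacle, NVE20813 had 37.8 CPM in barcodes with 0 NVE7724 UMIs, 74.6 CPM with 1 or 2, 613 CPM with 3 to 5, 887 CPM with 6 or more outside the rule, 3016 CPM in members under 5% and 4424 CPM in members at 5% or more. Calponin NVE7521 ran from 17.0 CPM at 0 UMIs through 352 CPM in barcodes with 6 or more outside the rule to 499 CPM in members at 5% or more. In the pharynx NVE8266 had 6.68 CPM at 0 UMIs, 111 CPM at 1 or 2, 1455 CPM at 3 to 5, 1609 CPM at 6 or more outside the rule and 3529 CPM in members. Others did not follow it there: over the same 5 bins NVE647 had 0.786, 15.9, 1818, 254 and 971 CPM and TPM_SCHJA had 128.5, 111.3, 909, 282 and 734 CPM, with 8 barcodes in the bin of 3 to 5 UMIs. The remaining barcodes therefore include some with the same genes, and against those with 0 NVE7724 UMIs alone the ratio of NVE20813 was 95.8 in the tentacle and 223 in the pharynx, that of NVE647 57.0 in the tentacle, and that of calponin 26.8 in the tentacle.

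Members were also located among clusters of all 7112 kept barcodes, computed without NVE7724. Of 22 clusters, 1 held 137 of the 158 tentacle members (86.7%) and 23 of the 31 pharynx members (74.2%). This cluster had 563 barcodes, of which 473 were from the tentacle, 65 from the pharynx, 25 from the body wall and 0 from the mesentery. Members made up 29.0% of its tentacle and 35.4% of its pharynx barcodes, so most of its barcodes were outside the rule. Its leading genes beside NVE7724 were AVIL_HUMAN NVE18027 (advillin, an actin-severing protein), NVE647 and ADF2_ORYSJ NVE10746 (actin depolymerising factor). In the tentacle ADF2_ORYSJ had 738 CPM in members and 1263 CPM in the remaining barcodes, a ratio of 0.584 (0.477 to 0.710), and 5013 CPM in the cluster's barcodes outside the rule. It was detected in 22.8% of tentacle members and 18.8% of the remaining barcodes. In the pharynx it had 11 UMIs in members, 10 of them in 1 barcode (ratio 2.23, 1.10 to 4.04). AVIL_HUMAN had 965 CPM in tentacle members and 262 CPM in the remaining tentacle barcodes, a ratio of 3.68 (3.02 to 4.46). The cluster's tentacle barcodes outside the rule had 1039 CPM of it. In the pharynx it had 8 UMIs in members (189.5 CPM), against 415 CPM in the cluster's pharynx barcodes outside the rule. The 21 tentacle and 8 pharynx members outside this cluster were shallower, with median depths of 393 and 499 UMIs, against 757 and 1681 UMIs for those inside. Their levels of the GP2_CANFA models were of the same order: NVE20813 had 4636 CPM in tentacle members outside the cluster and 3551 CPM inside, and NVE8266 had 5160 CPM in pharynx members outside it and 3217 CPM inside.

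Several genes high in members were also abundant in the body wall, where NVE7724 was scarce. Over all kept barcodes, NVE6010 had 6547 UMIs in the body wall (3268 CPM), more than in tentacle members (1551 CPM) or pharynx members (2297 CPM). NVE8266 had 2325 UMIs in the body wall (1160.4 CPM), in 29.3% of barcodes, and MFNA_META3 NVE4331 had 1319 (658 CPM), in 35.2%. In contrast, NVE647 had 0 UMIs in the body wall and calponin NVE7521 had 5. The 34 genes high in members of both tissues had a median level of 434 CPM in tentacle members, 426 CPM in pharynx members, 177 CPM in the body wall, 3.84 CPM in the mesentery, 70.2 CPM in the remaining tentacle barcodes and 29.9 CPM in the remaining pharynx barcodes. Members and remaining barcodes are apart by the choice of these genes, so only the mesentery and body wall levels are not fixed by it. Body wall CPM was above both sets of remaining barcodes for 25 of the 34 (73.5%), against 49.7% of the 443 genes testable in both libraries. Mesentery CPM was below both sets for 27 of the 34 (79.4%), against 27.5%. The choice favours low levels in the remaining barcodes, so these shares are a description. This comparison with the body wall was chosen after the levels had been seen, and each tissue is 1 library.

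**Figure D5:**
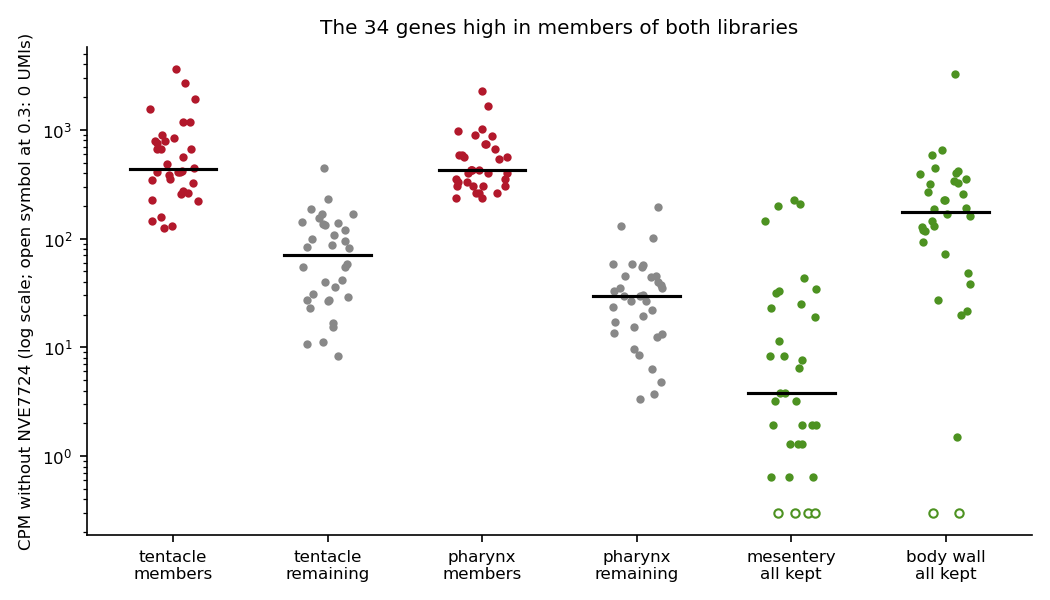
Each point is 1 of the 34 genes high in members of both libraries, in CPM without NVE7724 on a log scale, in tentacle members and remaining tentacle barcodes, pharynx members and remaining pharynx barcodes, and all kept mesentery and body wall barcodes; black bars are medians and open symbols at 0.3 stand for 0 UMIs. The medians are 434, 70.2, 426, 29.9, 3.84 and 177 CPM from left to right.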

How the data were processed

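The authors deposited 1 matrix of unnormalised UMI counts for each of 4 libraries, with 25734 gene rows and 7000 barcodes. The submitters' processing notes name Cell Ranger 2.1.0. The sources used here do not state the genome build, the alignment settings or how barcodes were chosen. Barcodes with at least 300 UMIs were kept, and no doublet caller was run. UMIs were summed over members and over remaining barcodes and divided by the sum without NVE7724, giving counts per 1000000 (CPM). A 0 was set to 3 UMIs per group for a bound. Ratios carry exact conditional binomial intervals, levels exact Poisson intervals and shares Clopper-Pearson intervals (95%). UMIs are molecules counted once, and intervals cover counting error only. MYL9-rich barcodes (members left out of this and the next classes) had at least 3 UMIs of NVE20160 plus NVE3912, and Ncol3-rich and NVE18957-rich ones at least 6 UMIs and 2% of the gene. Clusters used counts scaled to 10000 per barcode, logs, 2000 variable genes, 30 components, 15 neighbours and Leiden resolution 1 without NVE7724. Calculations were checked on simulated data. Tools were Python 3.11.15, numpy 2.4.6, scipy 1.17.1, scanpy 1.11.5, scikit-learn 1.9.0, igraph 0.11.9 and leidenalg 0.10.2.

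The members and gene lists were chosen with earlier results of these data known. Named were NVE7724, NVE7521 and NVE20813; up to 16 named and 6 unnamed genes high in both libraries with the largest smaller ratio; the 6 with most UMIs; 6 low in both; 4 high in 1 library only; and 3 genes of each of 14 lists. NVE8266, the paralogs, FGFR1_RAT, ELK1_MOUSE, AVIL_HUMAN, ADF2_ORYSJ, CALL3_RAT, MOXD1_CHICK, UTRO_HUMAN, the muscle genes and the list genes called were named after their values were seen. Looking up the models in the reference gene list gave 0 matches, so no coordinates are printed.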

Additional observations from a re-analysis of the deposited data

Results flagged for a closer look

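NVE7724 was found outside the barcodes compared in the report. The kept body wall barcodes, none of them a member, held 324 NVE7724 UMIs. Tentacle barcodes under 300 UMIs held 3656 NVE7724 UMIs in 32.3% of 5701 barcodes, which is 4607 CPM of all their UMIs. All kept tentacle barcodes, members included, held 9155 NVE7724 UMIs among 1843444 UMIs. The remaining kept tentacle barcodes had 968 CPM, but the rule had taken the lectin-rich barcodes out of them, so the 2 values are not alike. Pharynx barcodes under 300 UMIs held 195 NVE7724 UMIs, or 262 CPM.

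Some of the genes named here had counting intervals on opposite sides of 1 in the 2 tissues. CALL3_RAT NVE11431 had a ratio of members to remaining barcodes of 7.62 in the tentacle and 0.268 in the pharynx. MYL9_BOVIN NVE14934 had 4.32 in the tentacle and 0.540 in the pharynx. ADF2_ORYSJ NVE10746 went the other way, with 0.584 (0.477 to 0.710) in the tentacle and 2.23 (1.10 to 4.04) in the pharynx. Its pharynx value rests on 11 member UMIs, 10 of them in 1 barcode. The difference between the tissues was not tested for any of these genes.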

How the results depend on the processing

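Across 15 alternatives, 12 planned and 3 chosen after seeing the data, none of the 96 calls of named genes reversed and 25 were kept under every alternative that gave a value. In 167 of 1410 pairs of call and alternative the direction held and the call was lost, and 30 pairs gave no value. Of 308 pairs of gene list and alternative, 229 stayed within the counting interval, 77 moved and 2 reversed.

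Member counts depend on the rule by construction. With at least 500 UMIs per barcode there were 102 tentacle members, with at least 1000 UMIs 51, and with 10 NVE7724 UMIs and 4% there were 94 tentacle and 3 pharynx members. With 4 NVE7724 UMIs and 1% there were 49 pharynx members. Under the rule of 10 UMIs and 4%, 1 pharynx gene and 0 shared genes were high, low were 216 tentacle genes, 3 pharynx genes and 0 shared genes, 6 of 14 lists had a larger share in pharynx members, against 3 in the main analysis, and the pharynx ratios of the stress list (1.02) and of the developmental list (1.23) reversed, all with 3 pharynx members left.

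Demanding 30 UMIs left 91 tentacle, 10 pharynx and 8 shared high genes and 164, 46 and 21 low genes. Without a demand on detection 293 genes were high in the tentacle. A fold of 2 gave 340, 126 and 78 high genes, and 503 low genes in the tentacle and 61 in both. Drawing each barcode down to 300 UMIs left 28, 6 and 3 high and 95, 14 and 3 low genes, with fewer UMIs to call from. Equal weight for each barcode gave 67 low genes in the pharynx and 20 in both, and leaving out the 5% of barcodes with most UMIs gave 70 and 20; the cause was not tested. At cluster resolution 2, 77.2% of tentacle members shared 1 cluster.

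No paired analysis was possible because each tissue is 1 library. With 31 pharynx members and a median of 1552 UMIs each, genes under 10 UMIs in the members could not be called high there, and a low call needed 10 expected UMIs.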
